A study of Mus musculus with 18 samples.

Results

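The NMDA receptor subunit genes are Grin1, Grin2a, Grin2b, Grin2c, Grin2d, Grin3a and Grin3b, and all 7 were placed by symbol in RefSeq GRCm38.p6, which is the mm10 assembly of the peaks. The regions described are the consensus ATAC-seq peaks in each gene and in the 50 kb on either side of it, which made 277 of the 211682 peaks in the deposited list. ATAC-seq maps accessible chromatin by letting the Tn5 transposase cut and tag open DNA. The 18 samples were primary cortical neurons from CD1 mouse embryos (E14.5 to E15), a culture that holds more than a single kind of neuron. They were given the mitotic inhibitor cytosine arabinoside at 2 µM, transduced with lentiviral short hairpin RNAs on day 6 and taken on day 11. The groups were shOpa1_shATF4 with 5 samples, shOpa1_shScrambled with 5, shCtrl_shATF4 with 3 and shCtrl_shScrambled with 5, so every group carries a pair of hairpins. Opa1 is a fusion GTPase of the inner mitochondrial membrane, and ATF4 is the transcription factor that carries the integrated stress response to its target genes.

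The design addresses the part of ATF4 in accessibility when Opa1 is knocked down and when it is not. The list names no sample or group, and the samples behind it are unknown here. No knockdown group was therefore compared with another, the depth per sample is unknown, and no value below has replicates. A peak width is the span of a called region, not a count of reads. Since 272 of the 277 peaks had the highest score that the authors give, 1000, scores rank nothing here. As a check of the label, all 6 neuronal markers had a peak within 1000 bp of a gene end, against 70.4% of protein-coding genes. So did 2 of 4 astrocyte markers, 2 of 4 oligodendrocyte lineage markers, 2 of 4 microglia markers and 1 of 2 endothelial markers. Aqp4, Aldh1l1, Mog, Sox10, Aif1, P2ry12 and Pecam1 had none. How much other cells add to any peak was not tested.

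NMDA receptors are tetrameric glutamate-gated cation channels that need glutamate together with glycine or D-serine, and that pass current when the membrane is also depolarised. Grin1 encodes the obligatory GluN1 subunit, Grin2a to Grin2d encode the glutamate-binding GluN2 subunits that set kinetics, and Grin3a and Grin3b encode glycine-binding GluN3 subunits. In the rodent cortex Grin2b is known as the main GluN2 gene before birth and Grin2a as the gene that joins it as the cortex matures. Grin2c is best known from the cerebellum, Grin2d from the brainstem, midbrain and interneurons, Grin3a from the early postnatal forebrain and Grin3b from motor neurons. The measurements here are of chromatin and do not give the use of any subunit.

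The RefSeq promoter table (GRCm38.p6) holds entries for 4 of the 7 members, Grin1, Grin2c, Grin2d and Grin3b. Each sequence runs 5′ to 3′ on the gene's strand from 250 bases before the annotated start to 50 bases from it. They are shown because the peak covers them to different extents, and capitals mark the bases that lie inside a consensus peak. Grin1 is at chr2:25319138-25319437 (minus strand), Grin2c at chr11:115267194-115267493 (minus), Grin2d at chr7:45866632-45866931 (minus) and Grin3b at chr10:79970474-79970773 (plus).
Grin1: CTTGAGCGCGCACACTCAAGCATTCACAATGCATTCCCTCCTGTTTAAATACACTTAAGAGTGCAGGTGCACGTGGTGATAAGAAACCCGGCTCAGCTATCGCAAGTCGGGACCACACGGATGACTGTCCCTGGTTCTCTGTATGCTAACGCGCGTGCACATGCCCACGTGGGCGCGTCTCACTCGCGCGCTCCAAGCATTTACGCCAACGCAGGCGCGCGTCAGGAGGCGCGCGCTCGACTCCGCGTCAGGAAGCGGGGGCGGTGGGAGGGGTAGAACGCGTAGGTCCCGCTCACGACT
Grin2c: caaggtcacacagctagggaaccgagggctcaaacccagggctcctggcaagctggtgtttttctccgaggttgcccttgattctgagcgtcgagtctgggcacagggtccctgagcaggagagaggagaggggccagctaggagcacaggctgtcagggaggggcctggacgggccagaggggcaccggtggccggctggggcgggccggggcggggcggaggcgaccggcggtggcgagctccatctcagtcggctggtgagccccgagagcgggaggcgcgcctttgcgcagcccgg
Grin2d: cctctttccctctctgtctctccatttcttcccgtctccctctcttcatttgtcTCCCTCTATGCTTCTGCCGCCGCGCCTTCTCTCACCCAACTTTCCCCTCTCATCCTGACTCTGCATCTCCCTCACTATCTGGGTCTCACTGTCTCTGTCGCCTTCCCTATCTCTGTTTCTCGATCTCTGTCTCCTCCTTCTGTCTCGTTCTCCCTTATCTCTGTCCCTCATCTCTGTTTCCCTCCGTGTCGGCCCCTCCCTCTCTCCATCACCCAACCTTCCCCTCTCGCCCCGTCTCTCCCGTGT
Grin3b: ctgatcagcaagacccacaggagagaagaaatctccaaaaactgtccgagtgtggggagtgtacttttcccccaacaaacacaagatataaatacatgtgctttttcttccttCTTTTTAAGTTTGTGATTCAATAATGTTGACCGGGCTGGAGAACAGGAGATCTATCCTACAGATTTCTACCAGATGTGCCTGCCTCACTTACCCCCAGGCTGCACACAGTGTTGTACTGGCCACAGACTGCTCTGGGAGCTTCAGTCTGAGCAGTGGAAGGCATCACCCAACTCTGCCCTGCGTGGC

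All 300 bases of the Grin1 promoter lay in a peak, as did 246 of the Grin2d bases and 187 of the Grin3b bases, and 0 of the Grin2c bases. A peak covered the start base itself in 3 of these 4 genes, against 62.5% of the 17492 protein-coding genes with an entry. At Grin2c the nearest peak was 361 bp wide (chr11:115266806-115267166) and stopped 77 bp inside the gene from the start. Within 1000 bp of the start, 4 of the 4 had a peak, against 68% of such genes. The peak over the Grin2d start, of 1054 bp (chr7:45865824-45866877), lies inside the gene because longer annotated transcripts reach past that start, so by the outermost ends it counts as an interior peak.

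The 4 sequences also differed in base composition. Grin2c had 70% G and C with 22 CpG dinucleotides, and Grin1 had 60.7% with 33. Grin2d had 56% with 12, and Grin3b had 48.3% with 3, beside medians of 56.3% and 13 over 21263 promoters. The sequence with no base in a peak was thus the one richest in G and C, and the sequence with most CpG was wholly inside a peak. Short motifs were searched on both strands. The GC box GGGCGG, which Sp-family factors bind, stood once in Grin1 (position 259, counted from 1 at the 5′ end of the window) and at positions 201, 211 and 216 of Grin2c, and 46.2% of all promoters hold it. The match in Grin1 overlaps the Egr-type site GCGGGGGCG at position 255, which 3.87% of promoters hold. The E-box CACGTG stood at positions 70 and 166 of Grin1 (7.84% of promoters). The TATA box letters TATAAA stood at position 87 of Grin3b (12.6%), outside the peak. The cyclic AMP response element TGACGTCA (2.23%) and the core TGATGNAA of the element that ATF4 binds with C/EBP factors (3.60%) were not among the letters of these 4 windows.

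At the gene ends, Grin2a, Grin2b and Grin3a each had a single wide peak at the higher-coordinate end and none at the other. Mouse Grin2a, Grin2b and Grin3a are known to be transcribed toward lower coordinates, so the higher-coordinate end is where their longest transcripts begin. The Grin2a peak spanned 2702 bp (chr16:9993331-9996032) and lay wholly within the gene. The Grin2b peak spanned 1982 bp (chr6:136171991-136173972), of which 357 bp lay beyond the gene, and it also overlapped the lncRNA gene Gm26653. The Grin3a peak spanned 1912 bp (chr4:49844285-49846196), with 173 bp beyond the gene. Of 21774 protein-coding genes, 26 had a widest end peak of 2702 bp or more, Grin2a included, and 741 had one at least as wide as that of Grin3a.

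The other 4 members had peaks near both ends, and each of these was narrower than those of Grin2a, Grin2b and Grin3a. Grin1, which encodes the subunit found in every NMDA receptor, had 1354 bp over its start (chr2:25318087-25319440) and a second peak of 778 bp beyond it (chr2:25319949-25320726). At its other end a peak of 1836 bp (chr2:25289605-25291440) lay mostly outside the gene, with 1572 bp there, and overlapped Lrrc26 and the antisense transcript gene Grin1os. ATAC-seq reads carry no strand, so that peak cannot be given to a single gene. Grin2d had 1011 bp at its higher-coordinate end (chr7:45870152-45871162) and 948 bp beyond the other (chr7:45830507-45831454), over Grwd1. Grin3b had 987 bp over its start (chr10:79970587-79971573), 446 bp just before the gene (chr10:79969283-79969728) and 1028 bp at the far end (chr10:79975876-79976903). Grin2c had 954 bp toward the end of the gene (chr11:115249882-115250835) and 410 and 361 bp at the start side. With a window of 500 bp in place of 1000 bp, the widest end peak of Grin2c was 361 bp.

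All 7 members had a peak within 1000 bp of an end, against 70.4% of protein-coding genes, and 4 of 7 had one at both ends, against 20.6%. With the neighbouring genes this close, a peak at an end of Grin1, Grin2c, Grin2d or Grin3b can belong to the next gene. The median of the widest end peak was 1836 bp over the members and 904 bp over all protein-coding genes, those with none counted as 0. Over the protein-coding genes that have an end peak, the median was 1133 bp. The member median is the Grin1 peak that overlaps Lrrc26. It was 1354 bp when end peaks that overlap another protein-coding gene were left out, a step applied to the members only.

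**Figure D1:**
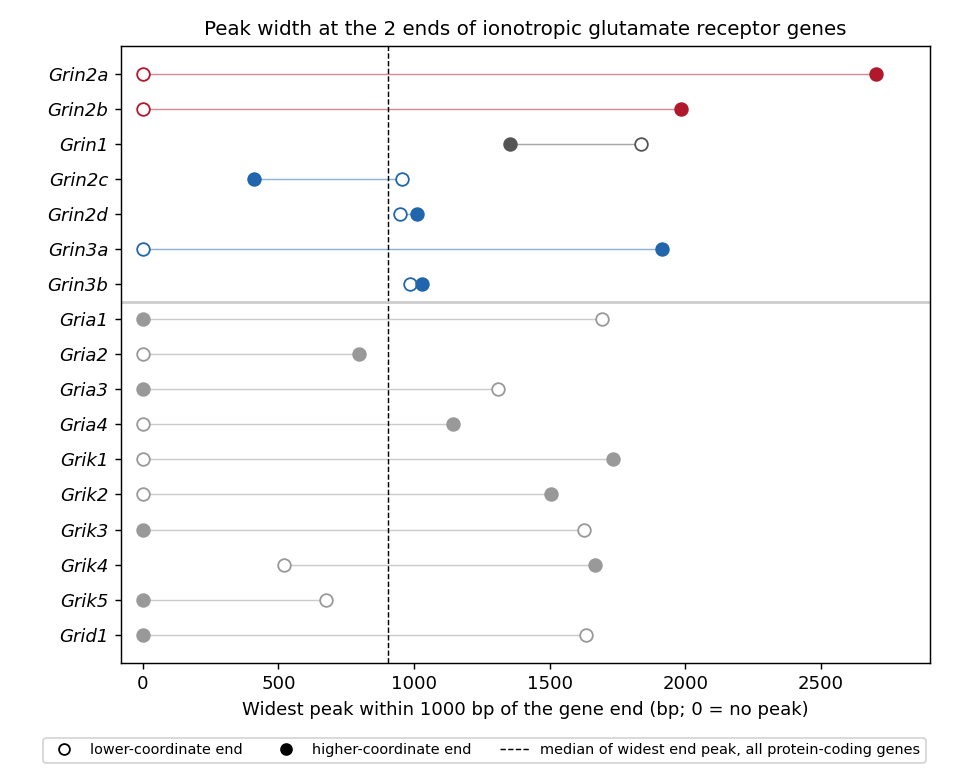
Widest peak within 1000 bp of the lower-coordinate (open circles) and higher-coordinate (filled circles) end of each gene, in bp, for the 7 NMDA receptor genes (Grin2a and Grin2b in red, Grin1 in dark grey, the remaining members in blue) and 10 of the 11 other ionotropic receptor genes (light grey). Grin2a, Grin2b and Grin3a combine an end at 0 with an end between 1912 and 2702 bp, and the dashed line marks the median of 904 bp.

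Setting Grin2a and Grin2b against Grin2c, Grin2d, Grin3a and Grin3b showed wide end peaks at both, but also at Grin3a. The widest end peaks were 2702 bp at Grin2a and 1982 bp at Grin2b, against 954 bp at Grin2c, 1011 bp at Grin2d, 1912 bp at Grin3a and 1028 bp at Grin3b. Grin3a lay just below Grin2b and well above Grin2c, Grin2d and Grin3b. This order turns for Grin2d when the bases covered by all peaks within 2500 bp of an end are counted. They were 2450 bp at Grin2a and 1982 bp at Grin2b, against 1153 bp at Grin2c, 2431 bp at Grin2d, 1912 bp at Grin3a and 1433 bp at Grin3b. Part of the 2702 bp peak of Grin2a lies more than 2500 bp from the end, so its value is cut by this window. The Grin2d value includes most of a 1232 bp peak beyond the gene (chr7:45872602-45873833) that overlaps the neighbouring gene Kdelr1, so it is not a measure of Grin2d alone. Among all protein-coding genes, Grin2a was at percentile 99.9 and Grin2b at 97.3 for this width. Grin2c was at percentile 52.7, Grin2d at 56.2, Grin3a at 96.6 and Grin3b at 57.3. Grin2c, Grin2d and Grin3b were thus near the middle of all genes. They were below the median of 1133 bp over the genes that have an end peak. Genes of like length, between 0.8 times the member's length and its length divided by 0.8, had median end widths of 1202.5 bp for Grin2a and 1249 bp for Grin2b. Those for Grin2c, Grin2d, Grin3a and Grin3b were 945, 1032, 1154.5 and 878 bp. Genes are not replicates and the list is single, so no test was made of this difference.

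Inside the genes, the counts followed length for all members but Grin3a. An interior peak is one whose midpoint lies in the gene and over 1000 bp from both ends. Every member had at least 1, against 71% of protein-coding genes of 5000 bp or more. Grin2a (428.183 kb) had 60 and Grin2b (460.395 kb) had 74, against 4 in Grin2c (18.129 kb), 10 in Grin2d (39.312 kb), 7 in Grin3a (184.413 kb) and 1 in Grin3b (6.794 kb). Grin1 (28.011 kb) had 8. Grin2a and Grin2b together held 81.7% of the members' interior peaks in 76.8% of their interior sequence. The wide end peak of Grin2a and the 954 bp peak of Grin2c reach far enough inside to be counted here as well, which leaves 59 and 3 without them.

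Per 100 kb of interior the order changed. Grin2a had 14.1 and Grin2b 16.1 interior peaks per 100 kb, against 24.8 in Grin2c, 26.8 in Grin2d, 3.84 in Grin3a and 20.9 in Grin3b. Grin1 had the highest density of the 7, at 30.8. The short members were thus denser than Grin2a and Grin2b, Grin3a was sparser, and the median over protein-coding genes of at least 5000 bp was 7.53. The value of Grin3b rests on a single peak, and that of Grin2c on 4, of which 2 remain with a margin of 2500 bp. That of Grin2d rests on 10, the peak over its annotated start included.

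Beside genes of like length, Grin2b was at percentile 83.1 for interior density (237 genes, whose median count was 42) and Grin2a at 73.8 (248 genes, median 39). Grin2c was at percentile 90.1 (2673 genes, median 1), Grin2d at 95.1 (2215 genes, median 3) and Grin3b at 79.5 (1852 genes, median 0). Grin3a was at percentile 12.9, with 7 interior peaks where 688 genes of its length had a median of 19 and quartiles of 12 and 30. Grin1 was at percentile 96.5 (2663 genes, median 2). Grin3a was therefore the only one of the 7 below the median of its length class, in spite of an end peak nearly as wide as that of Grin2b. On average Grin2a and Grin2b were at percentile 78.5 of their length classes, against 69.4 for Grin2c, Grin2d, Grin3a and Grin3b, but over genes of every length they were at 74.7 against 76.4, so the sign of this difference depends on the background. It also rests on Grin3a, since Grin2c, Grin2d and Grin3b alone averaged percentile 88.2 of their length classes.

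**Figure D2:**
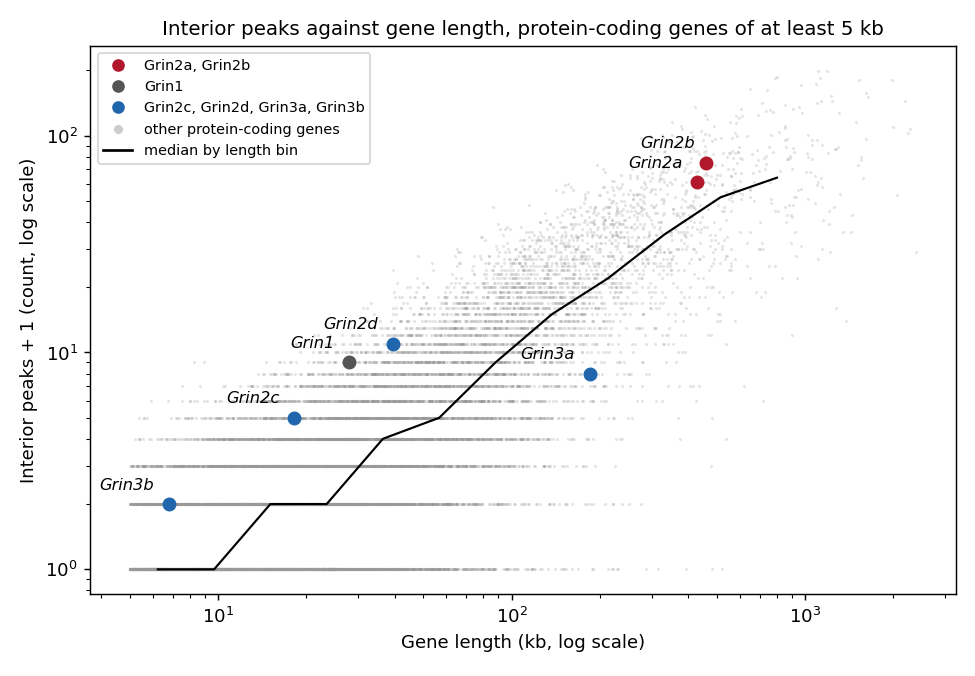
Interior peaks plus 1 (count, log scale) against gene length (kb, log scale) for protein-coding genes of at least 5 kb (grey points) with the median in length bins as a line, and Grin2a and Grin2b in red, Grin1 in dark grey and the remaining members in blue. Grin3a, with 7 interior peaks in 184.413 kb, lies below the line, and the other 6 lie above it.

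The interior peaks of Grin2a and Grin2b were spread along the whole of both genes. Counting only peaks clear of the end windows, those of Grin2a ran from 176 to 1160 bp with a median of 470 bp, and those of Grin2b from 163 to 1376 bp with a median of 430.5 bp. The median over the 102323 interior peaks of all protein-coding genes was 417 bp. The 3 of at least 1000 bp in Grin2a lay at chr16:9670442-9671489, chr16:9752459-9753574 and chr16:9882018-9883177. The 3 in Grin2b lay at chr6:135783292-135784489, chr6:135906958-135908333 and chr6:136010338-136011348. The median distance between neighbouring midpoints was 4763.75 bp in Grin2a and 4522 bp in Grin2b, and 6 and 13 neighbouring pairs were separated by under 500 bp. Without exon positions in the sources used here, no peak was assigned to an exon or an intron.

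Divided into 5 equal segments from the higher-coordinate end, Grin2a held 8, 15, 17, 11 and 8 interior peaks clear of the ends. Grin2b held 10, 17, 15, 18 and 14. The segment next to the wide end peak thus had fewest in Grin2b and, level with the last segment, fewest in Grin2a. The longest stretch of Grin2a without a peak was 39.224 kb (chr16:9907065-9946288), and that of Grin2b was 35.76 kb (chr6:136081660-136117419), both in the part of the gene nearer that end. Genes of like length had median longest stretches of 45.6875 and 49.075 kb.

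**Figure D3:**
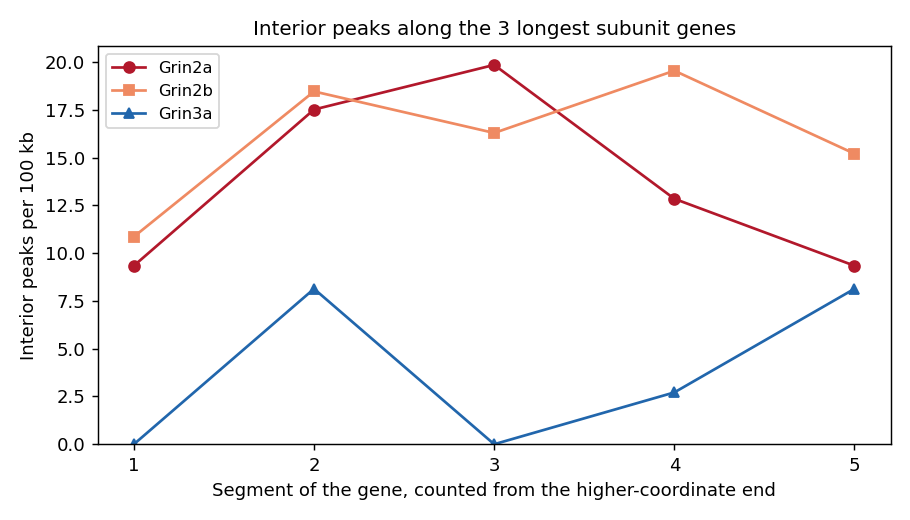
Interior peaks per 100 kb in each of 5 equal segments of Grin2a (circles), Grin2b (squares) and Grin3a (triangles), counted from the higher-coordinate end and without peaks that reach an end window. Grin2a and Grin2b have at least 8 peaks in every segment, and Grin3a has 0 in segments 1 and 3.

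Grin3a, the GluN3 gene with the long body, held its 7 interior peaks unevenly. The 5 segments from the higher-coordinate end held 0, 3, 0, 1 and 3. Peaks of 1252 bp (chr4:49665840-49667091) and 1008 bp (chr4:49688355-49689362) stood toward the lower-coordinate end, and a peak of 730 bp (chr4:49784730-49785459) stood 60564 bp short of the other end. The longest stretch without a peak was 54.344 kb (chr4:49730386-49784729), beside a median of 34.281 kb in genes of like length. Ppp3r2, a calcineurin subunit gene that lies inside Grin3a, had no peak within 1000 bp of it. Of the 5 peaks of all members' windows with a score below the ceiling, 2 were in the Grin3a window, 1 each in those of Grin2a, Grin2b and Grin3b, and none in the other 3 windows.

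In the short members the spacing of interior peaks clear of the ends differed. The median distance between neighbouring midpoints was 1488 bp in Grin1, 1883.5 bp in Grin2d and 3620.25 bp in Grin2c. Grin1 and Grin2d each had 3 neighbouring pairs separated by under 500 bp, and Grin2c had 0. The interior peaks of Grin1 ranged from 239 to 1207 bp, and the pair at chr2:25303895-25304694 and chr2:25304776-25305982 stood near the middle of the gene. Of its 8, 3 overlapped Grin1os. Those of Grin2d ranged from 281 to 1054 bp, the widest being the one over the annotated start. Grin2c had peaks of 249, 361 and 382 bp clear of its ends. The single interior peak of Grin3b spanned 534 bp (chr10:79973781-79974314). In Grin2b, 11 interior peaks overlapped the lncRNA genes Gm14329 and Gm14330, which lie inside it, and 2 of them were within 1000 bp of an end of Gm14329. In Grin2a no interior peak clear of the ends overlapped another gene.

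**Figure D4:**
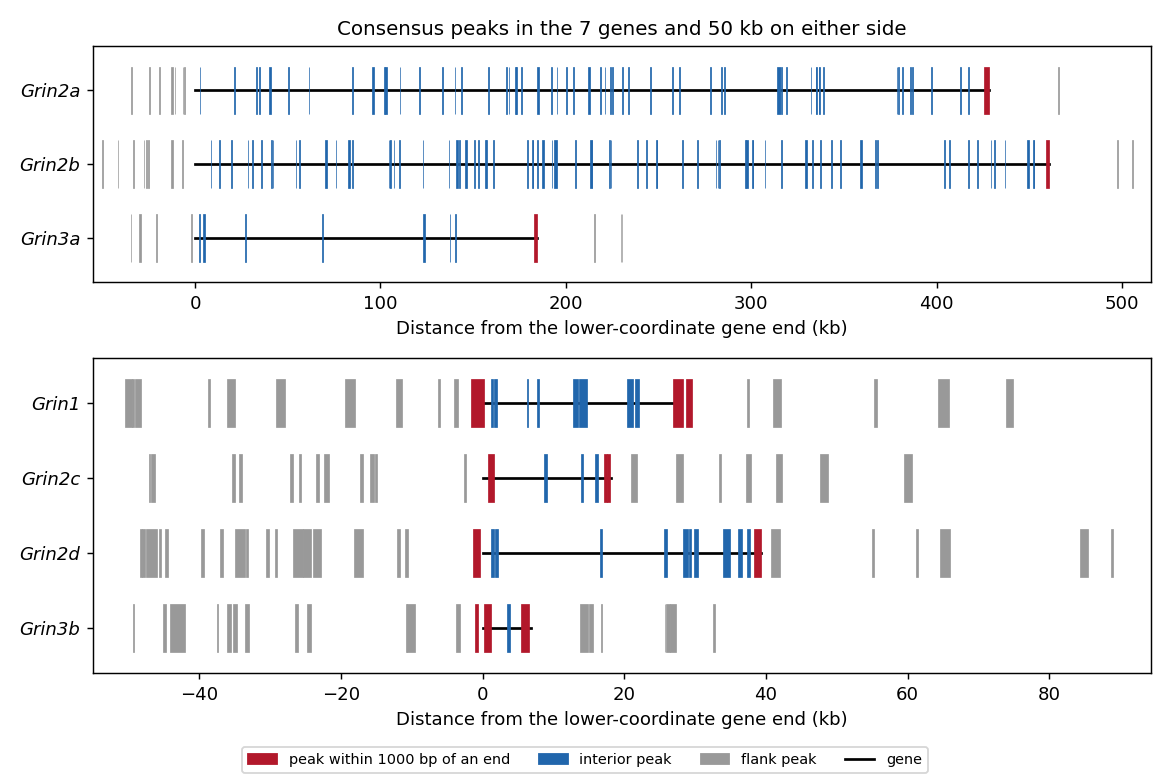
Consensus peaks (bars) in and around the 7 genes against distance from the lower-coordinate gene end in kb, with peaks within 1000 bp of an end in red, interior peaks in blue, flank peaks in grey and the gene as a black line; narrow peaks are drawn at a minimum line width. The upper panel shows the 3 long genes and the lower panel the 4 short ones at another scale, and Grin3a has 7 blue bars where Grin2b has 74.

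The flanks separated the members by neighbourhood. No other protein-coding gene lay in the windows of Grin2a and Grin2b, whose 8 and 10 flank peaks were all away from protein-coding genes. Most of these lay on the lower-coordinate side, 7 of 8 at Grin2a and 8 of 10 at Grin2b. At Grin2c all 19 flank peaks lay in or within 1000 bp of another protein-coding gene, at Grin2d all 23, at Grin3b 16 of 19 and at Grin3a 2 of 7. At Grin1 they were 14 of 15, and 11 other protein-coding genes overlapped its window, the most of any member. A count over gene and flanks is therefore a count over neighbours at Grin1, Grin2c, Grin2d and Grin3b. The totals were 68 for Grin2a and 85 for Grin2b, against 25 for Grin2c, 35 for Grin2d, 15 for Grin3a and 23 for Grin3b, with 26 for Grin1. Without flank peaks in or at other protein-coding genes, Grin2c had 6, Grin2d 12, Grin3a 13, Grin3b 7 and Grin1 12. Grin3a thus had the fewest peaks before this step, and more than Grin1, Grin2c, Grin2d and Grin3b after it.

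**Figure D5:**
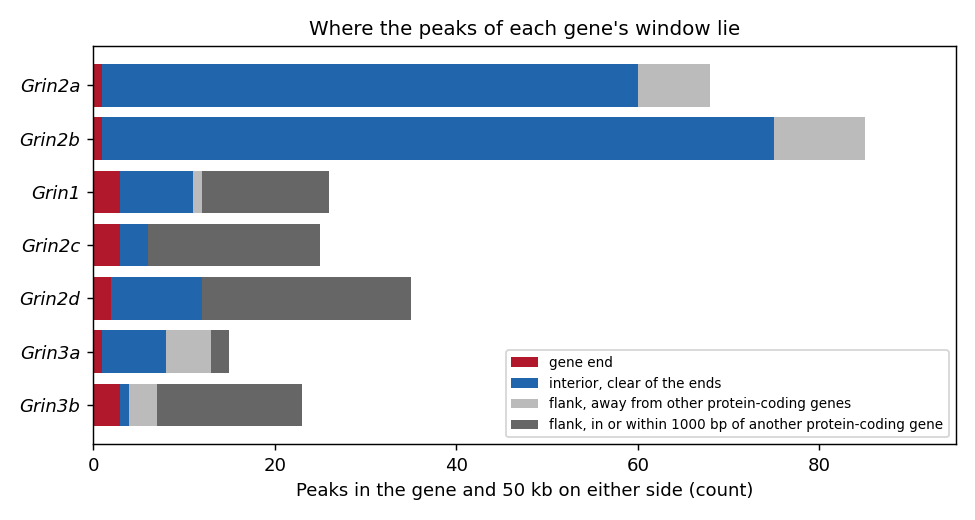
Number of peaks in each gene and 50 kb on either side, stacked by place: gene end (red), interior clear of the ends (blue), flank away from other protein-coding genes (light grey) and flank in or within 1000 bp of another protein-coding gene (dark grey). Interior peaks make up most of the 68 peaks of Grin2a and 85 of Grin2b, and dark grey makes up most of those of Grin1, Grin2c, Grin2d and Grin3b.

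The closest relatives of these genes encode the AMPA (Gria), kainate (Grik) and delta (Grid) receptors. All 11 of them had a peak within 1000 bp of an end, against 70.4% of protein-coding genes, and their widest end peaks ranged from 675 bp at Grik5 to 1732 bp at Grik1, with a median of 1505 bp. Of the 10 plotted, all but Grik4 had a peak at one end and not the other, as did Grin2a, Grin2b and Grin3a and 49.8% of protein-coding genes. The NMDA receptor genes ranged from 954 to 2702 bp, so Grin2a, Grin2b, Grin3a and Grin1 were each wider than all 11. For Grin1 this rests on the peak over Lrrc26, and its start peak of 1354 bp lies within their range. Inside the genes the relatives spanned as wide a range as the members. Grik3 had 61 interior peaks, at percentile 98.3 of its length class, and Gria3, Gria4 and Grik2 had 12, 18 and 29, at percentiles 13.4, 16.9 and 14.9, close to Grin3a. Low counts for the length were thus also seen among relatives, and 6 of 11 relatives and 6 of 7 NMDA receptor genes were above the middle of their class. No test was made, since genes are not replicates.

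Genes nearest to Grin2a and Grin2b were found by distance over 3 values, the log2 of gene length, of interior peaks plus 1 and of the widest end peak, among 15319 other protein-coding genes with an end peak. For Grin2a they were the semaphorin receptor gene Plxna4 (443.65 kb, 76 interior peaks, 2589 bp, distance 0.345), Tln2, which encodes a talin that links integrins to actin (416.961 kb, 57, 2129 bp, distance 0.354), and the cytoskeletal linker gene Macf1 (338.17 kb, 58, 2509 bp, distance 0.360). For Grin2b they were Reln, which encodes the secreted glycoprotein reelin (460.252 kb, 66, 2135 bp, distance 0.195), the cyclic AMP phosphodiesterase gene Pde4b (519.944 kb, 72, 1856 bp, distance 0.203) and Phactr1, a regulator of protein phosphatase 1 and actin (458.153 kb, 84, 1849 bp, distance 0.207). The neighbours of Grin2b were closer than those of Grin2a.

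The scaffolds, enzymes and transporters that work with the receptor were listed as 53 genes. Of these, 51 had a peak within 1000 bp of an end (96.2%, against 70.4% of protein-coding genes), with a median widest end peak of 1492 bp. The median of the receptor genes was 1836 bp, or 1354 bp without end peaks that overlap another protein-coding gene. That step was applied to the receptor genes only, so it cannot show which list is wider. The 2 without were Shank3, a postsynaptic scaffold gene, and Nos1, the neuronal nitric oxide synthase that is tethered to the receptor complex. Shank3 had 2620 bp at an annotated start that lies inside its outermost ends, the widest start peak of the list. The next widest start peaks were at Camk2d (2528 bp), a subunit gene of the calcium and calmodulin-dependent kinase, Ephb2 (2362 bp), a receptor tyrosine kinase, Src (2326 bp), a kinase that phosphorylates the receptor, and Prkcb (2180 bp), a protein kinase C. Of 40 listed genes with a start entry, 38 had a peak within 1000 bp of it, against 68% of genes. Nos1 and Dao, the D-amino acid oxidase that breaks down the co-agonist D-serine, did not. The median percentile of the 53 for interior density in their length classes was 77.8, beside 83.1 over the receptor genes.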

How the data were processed

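Accessibility was measured by ATAC-seq in 18 samples, sequenced with paired 50 bp reads, per the labels. The authors deposited 1 list of consensus peaks on mm10, each with coordinates, a name and a score, and no values per sample. Names begin with MSPC, a program that combines replicate calls. MACS2, deepTools and MultiQC are named, without versions, in the submitters' processing notes. Not given in the sources used here were the aligner, thresholds, read shifting, blacklist and samples of the consensus. In the deposited list 208439 of 211682 peaks have a score of 1000 and the others lie between 112.811 and 310.719, on an unknown scale, so scores only served to leave peaks out in an alternative.

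Widths and positions (other values deposited by the authors as coordinates) were compared with RefSeq GRCm38.p6 genes on nuclear chromosomes, scaffolds left out: 49595 genes, 21774 of them protein-coding. Starts came from a RefSeq promoter table (17492 protein-coding genes). Where a start was lacking, both ends are given, and likeness was computed on the widest end peak. Percentiles are shares of genes below the value, ties counting as a part. Counting was tested on simulated data. No statistical test was run.

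The members and lists were chosen with earlier results of these data known. Named genes are the members, their 11 relatives (1 of which is not reported here by itself), the 5 partners with the widest start peak and those with none, the 3 nearest genes and neighbours in a window. Shank3 was also named among the genes without an end peak, after its value was seen. Python 3.11.15, numpy 2.4.6, pandas 2.3.3 and matplotlib 3.10.9 were used.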

Additional observations from a re-analysis of the deposited data

How the results depend on the processing

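No paired analysis was possible because the list holds no values per sample, and none could leave out a replicate. The count of members with an end peak was 7 with windows of 500 and 2500 bp and with peaks of at least 500 bp, and 6 when the midpoint had to lie in the window, which leaves out Grin2a. With peaks of at least 500 bp the 7 genes held 67 interior peaks, against 164. Grin2a then had 26 and Grin2b 27, against 60 and 74 with all widths. Grin1, Grin2d and Grin3a had 4 each, and Grin2c and Grin3b had 1 each. The mean percentile of Grin2a and Grin2b minus that of Grin2c, Grin2d, Grin3a and Grin3b was -1.78 for interior density over genes of every length, -4.82 for covered bases per kb, and 9.04 within length classes, the opposite sign. The change of background is the only step that differs between the -1.78 and the 9.04. With Grin3a left out, Grin2a and Grin2b were at a mean percentile of 78.5 of the length classes, against 88.2 for Grin2c, Grin2d and Grin3b. Of 105 alternative values for single members, 82 stayed within 1.5 times and 23 moved further. Settings chosen after seeing the data left out end peaks that overlap another protein-coding gene (Grin1 then had 1354 bp), peaks that reach an end window and peaks at an annotated start. The list gives no depth, so a region without a peak is not shown to be closed.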
